A study of Mus musculus with 9 samples.

Results

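The 6 genes described here encode the natriuretic peptides and their receptors in the mouse, and were chosen by name: the ligand genes Nppa (atrial natriuretic peptide, ANP), Nppb (B-type, BNP) and Nppc (C-type, CNP), and the receptor genes Npr1, Npr2 and Npr3. All 6 had a row among the 41214 features of the deposited table, and 4 of them (Npr1, Npr2, Npr3 and Nppc) passed the filter on low counts, as did 17103 features in all. Gene expression was measured by RNA-seq at E17.5 in sorted endothelial cells of the heart ventricles of embryos, with atria and the aortic region removed. The 9 libraries were 3 of each of 3 sorted populations. All embryos carried R26 (tom/+), Nes-CreER (Tg/0) and Nes-Gfp (Tg/0) and had received 0.1 ug of tamoxifen at E15.5, so that the Nes promoter drove both GFP and the recombinase that switches on Tomato. All sorted cells were viable, Ter119-, CD45-, CD31+ and GFP+. The endocardial population, from the inner lining of the chambers, had no further condition as the gate is written, so that other endothelial cells may be in it. The arterial population, enriched in intramyocardial arteries and capillaries, was Emcn-low and Tomato+, and the venous population, enriched in subepicardial veins, was Emcn-low, Tomato- and GFP-low. The labels do not say whether libraries of a population came from separate embryos, so that p-values rest only on how far these libraries differ among themselves, part of which may be technical.

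Natriuretic peptides are hormones known mainly from the heart, where cardiomyocytes release ANP and BNP. ANP and BNP bind the receptor encoded by Npr1 and CNP binds that encoded by Npr2, and both receptors are guanylate cyclases that make the intracellular messenger cyclic GMP when a peptide binds. The receptor encoded by Npr3 has no cyclase domain. It binds all these peptides and takes them up for breakdown, for which it is called the clearance receptor, and Npr3 is a known marker gene of embryonic endocardium. CNP is known as a peptide of the endothelium.

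The promoters of Npr3 and Npr1 are shown because Npr3 was the highest receptor gene in endocardial libraries and Npr1 in arterial and venous ones. Those of Nppa and Nppb are shown because these neighbouring ligand genes had almost no counts. Each is 250 bases before to 50 after the RefSeq start site on GRCm38.p6 (which can differ from the gene ends given further on, from another annotation), written 5′ to 3′ on the strand of the gene, with matches to the motifs named after them in capitals. The Npr3 window is chr15:11907322-11907621 on the minus strand, the Npr1 window chr3:90465817-90466116 on the minus strand, the Nppa window chr4:148000472-148000771 and the Nppb window chr4:147985650-147985949, both on the plus strand.
Npr3: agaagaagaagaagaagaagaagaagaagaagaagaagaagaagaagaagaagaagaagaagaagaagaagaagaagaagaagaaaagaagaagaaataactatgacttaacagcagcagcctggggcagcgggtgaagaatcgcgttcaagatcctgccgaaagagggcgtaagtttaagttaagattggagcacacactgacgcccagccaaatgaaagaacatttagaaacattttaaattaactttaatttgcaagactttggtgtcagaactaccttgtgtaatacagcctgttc
Npr1: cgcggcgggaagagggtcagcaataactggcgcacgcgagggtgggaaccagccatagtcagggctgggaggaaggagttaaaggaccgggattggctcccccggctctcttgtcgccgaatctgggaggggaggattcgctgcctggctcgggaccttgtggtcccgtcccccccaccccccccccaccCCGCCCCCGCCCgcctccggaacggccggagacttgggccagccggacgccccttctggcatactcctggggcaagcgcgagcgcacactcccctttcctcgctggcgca
Nppa: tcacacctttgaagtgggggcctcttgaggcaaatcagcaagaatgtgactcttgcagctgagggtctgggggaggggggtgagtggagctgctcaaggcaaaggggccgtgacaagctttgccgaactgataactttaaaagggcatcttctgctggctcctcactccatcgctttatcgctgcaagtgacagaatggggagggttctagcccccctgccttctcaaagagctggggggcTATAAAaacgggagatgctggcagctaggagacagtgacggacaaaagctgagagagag
Nppb: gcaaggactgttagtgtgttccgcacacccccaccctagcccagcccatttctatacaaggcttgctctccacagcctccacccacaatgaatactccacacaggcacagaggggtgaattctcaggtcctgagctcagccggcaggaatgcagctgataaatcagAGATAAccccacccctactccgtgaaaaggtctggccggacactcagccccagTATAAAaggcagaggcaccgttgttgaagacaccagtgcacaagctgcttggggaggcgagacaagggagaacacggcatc

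The Npr3 window opened with a run of aag repeats and had 39.0% G and C with 6 CpG dinucleotides, against 69.7% and 26 in the Npr1 window, where the median of 32851 RefSeq promoters was 52.7% and 7. Motifs were searched on both strands. The TATA box TATAAA was found in the windows of all 3 ligand genes and of none of the 3 receptor genes, and in 13.6% of all promoters. The GC box GGGCGG had 2 adjacent matches in the Npr1 window and 1 match in that of Nppc, and was found in 35.7% of all promoters. The GATA motif was searched in the form AGATAA, which matched only in the Nppb window (11.2% of all promoters). The ETS motif CAGGAAG (13.3%) and the E-box CACCTG (20.2%) had no match in any of the 6 windows. Other forms of these motifs were not searched. These matches describe the letters of the windows and no binding.

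The libraries held 12750553 to 19474419 counts. Levels are given as CPM (counts scaled to TMM-adjusted library size) with their SD, or as RPKM (CPM divided by exon length) to compare genes with each other. Differences are log2 fold changes ± standard error (SE) from edgeR's quasi-likelihood test, and a gene was called at an adjusted p under 0.05 (Benjamini-Hochberg over all 17103 features tested). Markers went with the labels for the most part. Of 10 endocardial markers, 10 were higher in endocardial than in arterial and 7 in endocardial than in venous libraries, and all 10 capillary markers were lower in both comparisons. Of 10 arterial markers, 8 were higher and none lower in arterial than in venous libraries, and of 7 venous markers tested 3 were lower. The venous markers did not set venous from endocardial libraries, where 3 of the 7 were higher in endocardial ones and 2 lower. Tbx20, 1 of the 10 endocardial markers, averaged 88.0 CPM in endocardial and 136 CPM in venous libraries. Endocardial replicate 1 stood apart from its group in the number of genes detected, at 21101 against 17130 to 17337 in the other 2, and results are given with and without it where it changes them.

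Npr3 was by far the most abundant of the 6 genes, and that was so in the endocardial libraries alone. It had 2083, 2416 and 2452 CPM in endocardial replicates 1, 2 and 3, against 35.2, 26.7 and 15.2 CPM in the arterial and 65.3, 38.8 and 43.1 CPM in the venous replicates. Every endocardial library thus lay far above every coronary one, and the arterial libraries all lay below the venous ones. Endocardial and arterial libraries differed 90.0-fold (log2 6.49 ± 0.35 SE, adjusted p = 3.05e-07, edgeR). Endocardial and venous libraries differed 47.2-fold (log2 5.56 ± 0.34, adjusted p = 1.17e-06, edgeR). Without endocardial replicate 1 these log2 fold changes were 6.56 and 5.63. Among the 17103 features the first was the 71st largest rise and the second the 181st. Fewer cells of a type and less RNA per cell cannot be told apart in such bulk libraries. Npr3 lies on chromosome 15 (11839896 to 11907287, minus strand, GRCm38).

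**Figure D1:**
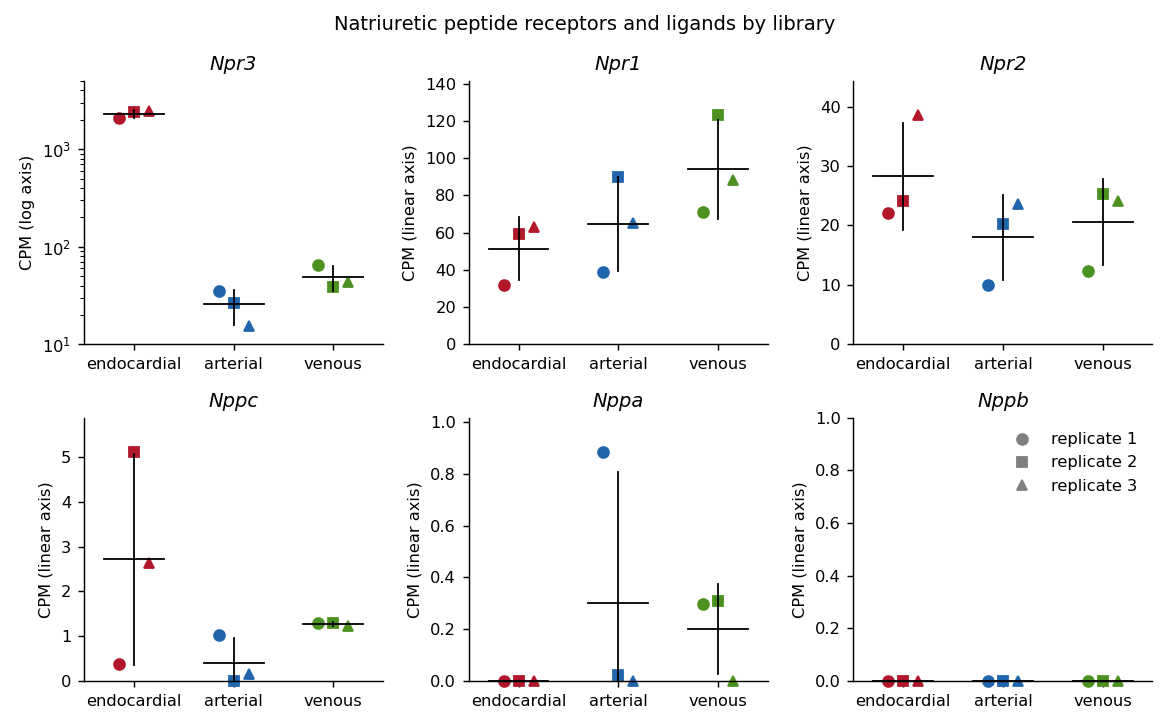
CPM of the 6 genes in each library of the endocardial, arterial and venous populations, with the replicate as symbol, the mean as a horizontal line and ± 1 SD (n = 3, cut at 0) as a vertical line; the Npr3 axis is logarithmic and the others are linear from 0. Npr3 lies between 2083 and 2452 CPM in endocardial libraries and at most at 65.3 CPM in the others, while the ligand genes have at most 5.12 CPM.

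The difference in Npr3 between the coronary populations was small beside that and was not called. Arterial libraries averaged 25.7 ± 10.03 CPM and venous libraries 49.1 ± 14.2 CPM (SD, n = 3 each). The log2 fold change was -0.93 ± 0.28 with a 95% interval from -1.55 to -0.31 (adjusted p = 0.278, edgeR). It was called by DESeq2 (adjusted p = 0.0239) and without a filter on low counts (6.21e-06), where 1.52% of features were called. It was not called with RLE scaling, with the replicate block or in a fit of those 2 groups. Leaving out any 1 library did not lead to a call either (adjusted p of 0.0795 to 0.649, edgeR). Npr3 was lower in the arterial library in each of the 3 batches, 1.85-fold, 1.45-fold and 2.83-fold. Of all features tested, 17.3% had groups that did not overlap in this comparison.

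Markers of other cells also differed between these libraries. The summed level of 12 fibroblast markers was 1708 to 2059.5 CPM in endocardial, 114 to 131 CPM in arterial and 1463 to 1705 CPM in venous libraries, with none at 0 in any population. Postn made up much of the endocardial sum, at 1047 CPM on average, against 60.5 CPM (arterial) and 574 CPM (venous). In endocardial libraries 8 of the 12 were called higher and none lower than in arterial ones. When set against venous ones, 4 were called higher and 4 lower, among them Ogn, which was 27.5-fold lower. The shares over all features were 5.75% higher and 5.92% lower in the first comparison, and 4.44% and 5.81% in the second. The summed level of 10 endocardial markers was 2102 to 3127, 143 to 194 and 356 to 506 CPM in endocardial, arterial and venous libraries. Of these 10, 6 were called lower and none higher in arterial libraries when set against venous ones, where 0.76% and 0.31% of all features were. The part of either in the level of Npr3 was not tested.

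Npr1, whose product is the ANP and BNP receptor, was present in every library, between 32.0 and 123 CPM. It had 32.0, 59.2 and 63.2 CPM in endocardial, 39.0, 89.7 and 65.0 CPM in arterial and 70.8, 123 and 88.2 CPM in venous replicates 1, 2 and 3. The order of the means was venous (94.0 ± 26.6 CPM), arterial (64.6 ± 25.3) and endocardial (51.5 ± 17.0), and within each batch the order was the same. The endocardial and arterial libraries overlapped, with a log2 fold change of -0.33 ± 0.33 and an interval from -1.06 to 0.40 (adjusted p = 0.711, edgeR), and it was 0.0226 without arterial replicate 2. The arterial to venous difference was -0.54 ± 0.33, with an interval from -1.27 to 0.19 (adjusted p = 0.741, edgeR). Neighbours in that order were thus not called apart. Within batches, arterial libraries were lower than venous ones 1.82-fold, 1.37-fold and 1.36-fold, and endocardial lower than arterial ones 1.22-fold, 1.52-fold and 1.03-fold.

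The outer pair, endocardial and venous, did not overlap for Npr1. The log2 fold change was -0.87 ± 0.33 with an interval from -1.60 to -0.14 (adjusted p = 0.144, edgeR), so that it was not called. It was -0.62 without endocardial replicate 1. The labels give libraries of the same number a shared batch, and replicate 1 had the lowest Npr1 of its population in all 3. With the replicate block the log2 fold change was -0.89 ± 0.19 and the difference was called (adjusted p = 0.00372, edgeR), as were 12.3% of all features with that block. It was also called without a filter on low counts (adjusted p = 0.00133, edgeR), as were 7.58% of features. Endocardial libraries were lower within batches 2.21-fold, 2.08-fold and 1.39-fold. Of all features tested, 28.2% had groups that did not overlap in this comparison. Npr1 lies on chromosome 3 (90450591 to 90465866, minus strand).

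Npr2, which encodes the CNP receptor, was the lowest of the cyclase receptors and did not separate the populations. It had 22.2, 24.1 and 38.5 CPM in endocardial, 9.95, 20.3 and 23.7 CPM in arterial and 12.2, 25.3 and 24.1 CPM in venous replicates. Replicate 1 was again the lowest of each population, and all groups overlapped. Log2 fold changes were 0.65 ± 0.37 for endocardial minus arterial (interval -0.13 to 1.43, adjusted p = 0.346), 0.46 ± 0.37 for endocardial minus venous (-0.32 to 1.24, adjusted p = 0.527) and -0.19 ± 0.37 for arterial minus venous (-0.97 to 0.59, adjusted p = 0.965, all edgeR). The last was 0.0901 without arterial replicate 1. Npr2 lies on chromosome 4 (43631935 to 43651244, plus strand).

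**Figure D2:**
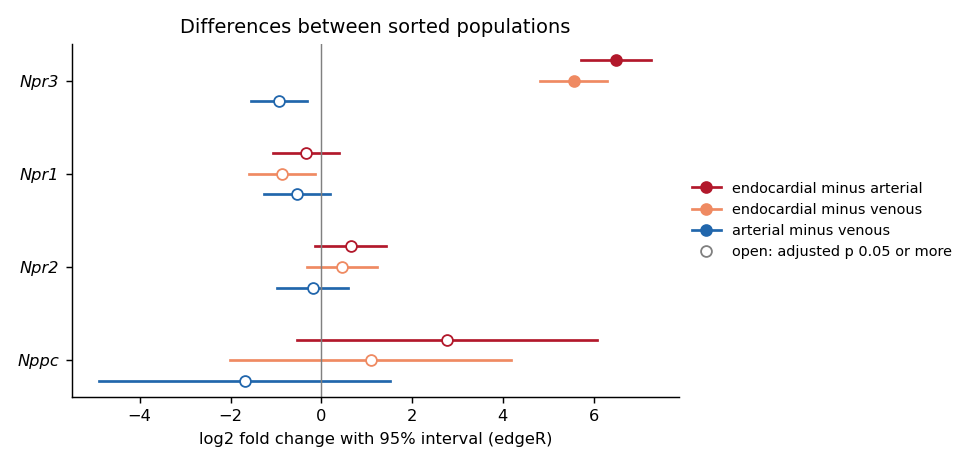
Log2 fold changes (horizontal axis) of the 4 genes tested, with 95% intervals, for endocardial minus arterial, endocardial minus venous and arterial minus venous; filled points had an adjusted p under 0.05 in edgeR. The 2 endocardial differences of Npr3, at 6.49 and 5.56, are the filled points, and the intervals of Nppc are the widest.

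Set beside each other per length, the receptor genes changed rank between endocardium and coronary endothelium. In endocardial libraries Npr3 had 247 ± 21.7 RPKM, Npr1 10.8 ± 3.55 and Npr2 6.05 ± 1.92 RPKM. In arterial libraries Npr1 led with 13.5 ± 5.30 RPKM, ahead of Npr2 (3.85 ± 1.53) and Npr3 (2.74 ± 1.07). In venous libraries Npr1 had 19.7 ± 5.56, Npr3 5.23 ± 1.51 and Npr2 4.40 ± 1.54 RPKM. The order of Npr2 and Npr3 was not the same in all replicates. Npr3 was above Npr2 in venous replicate 1 (6.95 against 2.62 RPKM). It was below Npr2 in venous replicates 2 (4.13 against 5.42) and 3 (4.59 against 5.16). In arterial replicate 1 Npr3 was also above Npr2 (3.75 against 2.13 RPKM), unlike in arterial replicates 2 and 3. In endocardial libraries Npr3 ranked 110th of 16917 features by mean RPKM, against 8283rd in arterial and 5981st in venous libraries.

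Npr3 made up 95.1%, 93.6% and 92.4% of the summed RPKM of the 3 receptor genes in endocardial replicates. Its share was 26.7%, 10.97% and 8.002% in arterial and 28.5%, 11.7% and 16.3% in venous replicates. The endocardial shares varied little, while replicate 1 had the highest Npr3 share of each population. The ratio of Npr3 to the sum of Npr1 and Npr2 was 19.4, 14.7 and 12.2 in endocardial libraries and between 0.0870 and 0.399 in coronary ones. Transcript shares are not shares of protein.

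**Figure D3:**
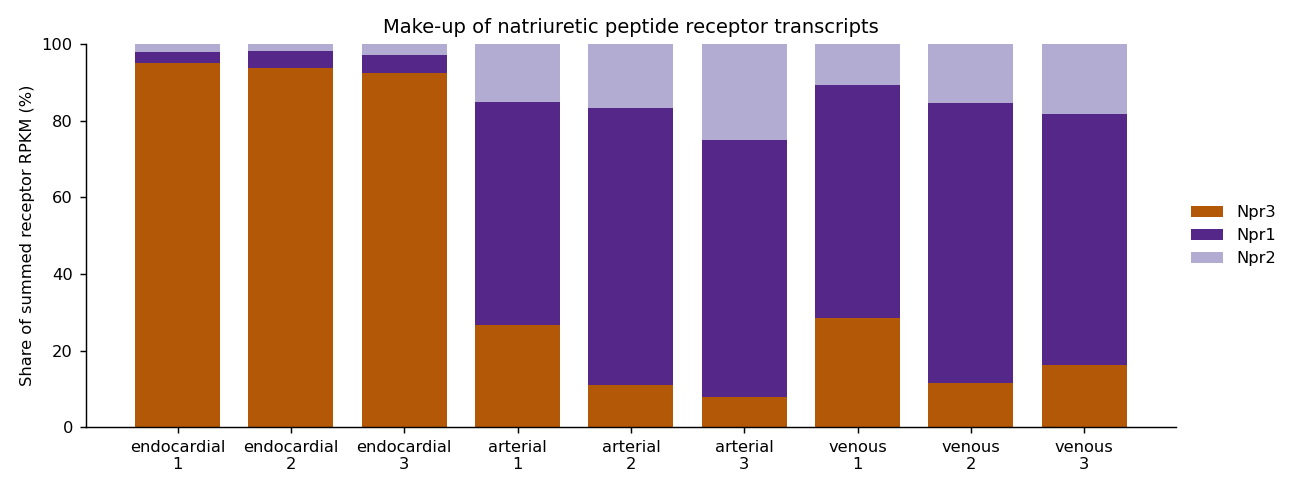
Share (%) of the summed RPKM of the 3 receptor genes in each library, with Npr3 at the bottom of each bar, Npr1 in the middle and Npr2 on top. Npr3 takes 92.4% to 95.1% in endocardial libraries, and Npr1 takes most of every arterial and venous bar.

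The ligand genes were near or at 0. Nppb had no count in any of the 9 libraries, where 3 counts would be 0.154 to 0.229 CPM. Nppa had no count in the 3 endocardial libraries, 12, 0.39 and 0 expected counts in the arterial and 5, 5 and 0 in the venous replicates, at most 0.884 CPM. Gm13054, an annotated antisense RNA that shares 532 exonic bases with Nppa, had 31.6 counts over the 9 libraries, against 22.4 for Nppa. The strandedness of the libraries is not given in the sources used here, so that the few reads of Nppa and of Gm13054 cannot be told apart. Neither Nppa nor Nppb passed the filter on low counts, and no fold is given for them. Both lie on chromosome 4 in the same direction, Nppb at 147985788 to 147987205 and Nppa at 148000722 to 148002079.

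Nppa and Nppb are textbook cardiomyocyte genes, and other cardiomyocyte transcripts were present in every library. The summed level of 18 cardiomyocyte markers was 556 to 657 CPM in endocardial, 300 to 431 CPM in arterial and 445 to 611 CPM in venous libraries. None of the 18 was at 0 in a population. Of these markers 4 were called higher in endocardial than in arterial libraries, where 5.75% of all features were. None was called between endocardial and venous libraries, where 10.2% of all features were. Myl7, which like Nppa is strong in atrial muscle, averaged 0.878, 0.401 and 0.542 CPM in endocardial, arterial and venous libraries. The endocardial libraries held the 18 cardiomyocyte markers at 556 to 657 CPM and had no count of Nppa. The source of the cardiomyocyte transcripts was not tested.

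Nppc, the gene of the endothelial peptide CNP, was detected at a low and uneven level. It had 5, 71 and 39 expected counts in endocardial, 14, 0 and 2 in arterial and 22, 21 and 24 in venous replicates. In CPM these were 0.382, 5.12 and 2.65 in endocardial, 1.03, 0 and 0.147 in arterial and 1.301, 1.297 and 1.229 in venous libraries. The venous replicates were nearly equal. Endocardial replicate 1 lay below all of them and within the range of the arterial ones. Endocardial replicates 2 and 3 lay above every arterial and venous library, so that both overlaps came from endocardial replicate 1. No difference was called. Leaving out any 1 library, endocardial replicate 1 included, did not lead to a call either (smallest adjusted p 0.156, edgeR). The log2 fold changes were 2.78 ± 1.56 for endocardial minus arterial (adjusted p = 0.344), 1.09 ± 1.46 for endocardial minus venous (adjusted p = 0.742) and -1.69 ± 1.51 for arterial minus venous (adjusted p = 0.874, all edgeR). Single libraries set these values: endocardial minus arterial was 5.13 without arterial replicate 1 and 1.97 without endocardial replicate 2, and the interval of that difference ran from -0.53 to 6.08. Nppc lies on chromosome 1 (86666291 to 86670571, minus strand).

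In all, edgeR's fit of all 9 libraries, with the filter and without the block, gave these calls. Npr3 was the 1 of 4 genes tested that was called between endocardial and arterial libraries, where 11.7% of all features were called. It was also the 1 of 4 called between endocardial and venous ones, where 10.2% were. Npr1 was called there too with the replicate block or without the filter, as given above. None of the 4 was called in that fit between arterial and venous libraries, where 1.07% of features were, or 0.628% without venous replicate 1. Without the filter Npr3 was called between them. There, Npr3 was the 1 of 4 at an unadjusted p under 0.05, where 8.48% of features were, and the 1 of 4 called by DESeq2, which called 2.59% of features. Without venous replicate 3 the share for endocardial against venous was 5.83%.

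Genes that process the peptides were next. Corin encodes the cardiac protease that cuts pro-ANP, Pcsk6 encodes a convertase that activates corin, and Furin encodes a convertase that cuts pro-BNP. Mme (neprilysin), Dpp4 and Ide encode peptidases that can degrade natriuretic peptides, and Ostn encodes osteocrin, a peptide that binds the Npr3 product. The list held 9 genes, these and also Ace and Ece1, and 8 of them were tested. In endocardial libraries 4 were higher and none lower than in arterial ones, where 5.75% of all features were higher and 5.92% lower. Against venous ones 3 were higher and none lower, where 4.44% and 5.81% of all features were. Ece1 was among the higher genes in both comparisons. The median log2 fold changes were 1.51 and 0.30, against -0.01 and 0.10 over all features.

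Corin had 40.1, 35.5 and 51.8 CPM in endocardial, 0.590, 1.96 and 0.294 CPM in arterial and 3.61, 3.27 and 1.89 CPM in venous replicates. The endocardial libraries lay above all others, at log2 fold changes of 5.43 ± 0.57 (adjusted p = 6.83e-06) and 3.86 ± 0.52 (adjusted p = 0.00012, edgeR). The first was 6.59 without arterial replicate 2. Corin is known from cardiomyocytes, whose markers were given above. The part of cardiomyocyte RNA in its level was not tested. The median log2 fold changes of the 18 markers were 0.91 and 0.10 in these comparisons.

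Dpp4 had 176, 201 and 224 CPM in endocardial, 1.99, 1.61 and 4.04 CPM in arterial and 13.9, 10.1 and 6.45 CPM in venous replicates. It was 79.1-fold higher in endocardial than in arterial libraries (adjusted p = 1.63e-07) and 19.7-fold higher than in venous ones (adjusted p = 3.2e-06, edgeR). Arterial libraries were lower than the venous ones as well (adjusted p = 0.0112, edgeR). That call ended with the replicate block (adjusted p = 0.0584), in a fit of those 2 groups (0.108) and without arterial replicate 1 (0.0722). Ece1, which encodes endothelin converting enzyme, stood at 1166 ± 406 CPM in the endocardial population, against 181 ± 2.76 CPM (arterial) and 213 ± 20.5 CPM (venous) (adjusted p = 6.13e-07 and 2.49e-06 for the endocardial differences, edgeR). Pcsk6 was 2.23-fold higher in endocardial than in arterial libraries (adjusted p = 0.0361, edgeR), and this call was lost without any single library but endocardial replicate 3 (0.0645 to 0.126), without a filter (0.081) and in a fit of those 2 groups (0.0929).

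Furin averaged 63.2 ± 17.1, 58.4 ± 14.3 and 47.0 ± 10.3 CPM in endocardial, arterial and venous libraries, and was not called. Mme was low, at 0.898 ± 0.887, 0.246 ± 0.364 and 4.34 ± 1.89 CPM in the same order, and was not called either. Ostn had at most 1.23 CPM in a library and was not tested.

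Genes of the soluble guanylate cyclase, a heterodimer that makes cyclic GMP in response to nitric oxide, came next, and Gucy1b1 and Gucy1a1 were higher in endocardial than in both other populations. Gucy1b1 (its beta subunit) had 140, 151 and 207 CPM in endocardial, 20.4, 18.8 and 15.3 CPM in arterial and 41.0, 33.4 and 34.0 CPM in venous replicates. The endocardial libraries were 9.14-fold above the arterial (adjusted p = 3.75e-08) and 4.597-fold above the venous ones (adjusted p = 2.57e-06, edgeR). Arterial libraries were lower than venous ones (log2 -0.99 ± 0.21, adjusted p = 0.0242), a call lost in a fit of those 2 groups (0.0656) and when arterial replicate 2 (0.0569), arterial replicate 3 (0.133), venous replicate 1 (0.131) or venous replicate 3 (0.0537) was left out. Gucy1a1, an alpha subunit, averaged 42.9 ± 13.6 CPM in the endocardial population, against 5.55 ± 1.97 CPM (arterial) and 5.56 ± 1.73 CPM (venous) (adjusted p = 4.34e-05 and 6.43e-05 for the endocardial differences, edgeR).

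Of the other alpha subunit, Gucy1a2, endocardial libraries had 15.8 ± 3.84 CPM, against 6.58 ± 3.20 CPM in arterial ones (adjusted p = 0.114, not called) and 4.71 ± 2.27 CPM in venous ones (adjusted p = 0.0299, called, edgeR). The venous call was lost without endocardial replicate 2 (0.128) or venous replicates 2 (0.0892) or 3 (0.166). Nos3, the endothelial nitric oxide synthase gene, did not follow, at 215 ± 50.4, 208 ± 26.2 and 191 ± 26.9 CPM in endocardial, arterial and venous libraries (adjusted p of 0.949 and 0.674 for the endocardial differences, edgeR). In all 5 of 8 listed genes were tested, with 2 higher against arterial and 3 higher against venous libraries and none lower. Of all features, 5.75% and 4.44% were called higher in these comparisons. The median log2 fold changes of the 5 genes were 1.26 and 1.74, against -0.01 and 0.10 over all features. Of the membrane cyclase genes on the list, Gucy2c, Gucy2d and Gucy2f did not pass the filter on low counts. Gucy2e was tested and not called (log2 -0.62 ± 1.33 and 0.95 ± 1.34 for the endocardial differences).

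The next list held effectors and targets of cyclic GMP together with some G protein genes. In each endocardial comparison 12 of the 15 genes tested were not called. Prkg1, which encodes cyclic GMP-dependent protein kinase 1, had 39.3, 51.7 and 30.5 CPM in endocardial, 1.92, 2.02 and 2.65 CPM in arterial and 5.26, 3.64 and 3.38 CPM in venous replicates. It was 18.4-fold above arterial (adjusted p = 6.84e-07) and 9.88-fold above venous libraries (adjusted p = 9.14e-06, edgeR). Rgs2, a regulator of G protein signalling that the kinase can phosphorylate, was lower, with 46.7, 17.1 and 24.1 CPM in endocardial against 180.4, 106 and 93.0 CPM in arterial and 169, 113 and 135 CPM in venous replicates. The log2 fold changes were -2.11 ± 0.39 (adjusted p = 0.00454) and -2.25 ± 0.39 (adjusted p = 0.0039, edgeR).

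Gnai2, an inhibitory G protein subunit of the kind to which the Npr3 product can couple, averaged 593 ± 154 CPM in endocardial, 1150 ± 126 in arterial and 1270.2 ± 198 CPM in venous libraries (log2 -0.96 ± 0.19 and -1.10 ± 0.19, adjusted p = 0.00231 and 0.000919, edgeR). Its paralog Gnai3 had 246 ± 28.5, 240 ± 6.02 and 252 ± 19.5 CPM in the same order and was not called. Vasp, a substrate of the kinase, had 96.2 ± 43.5, 111 ± 21.9 and 107 ± 16.5 CPM and was not called. Of 15 genes tested of this list, 1 was higher and 2 were lower in each endocardial comparison. Of all features, 5.75% were called higher and 5.92% lower against arterial libraries, and 4.44% and 5.81% against venous ones. Median log2 fold changes of the list were -0.03 against arterial and -0.15 against venous libraries, and over all features -0.01 and 0.10.

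Prkg1 and the soluble cyclase are also known from mural cells (pericytes and smooth muscle). The summed level of 12 mural markers was 81.8 to 153 CPM in endocardial, 538 to 847 CPM in arterial and 236 to 345 CPM in venous libraries, with Higd1b at 0 in the endocardial ones. Much of each sum was Abcc9, at 48.8, 517 and 201 CPM on average in endocardial, arterial and venous libraries. Pdgfrb went the other way, at 40.8 ± 16.5, 14.8 ± 9.46 and 9.40 ± 2.64 CPM in the same order, and was called higher in endocardial than in venous libraries (adjusted p = 0.00854, edgeR). Of the 12 mural markers, none was called higher and 3 lower against arterial libraries, and 1 higher and 2 lower against venous ones. The shares over all features were 5.75% higher and 5.92% lower against arterial libraries, and 4.44% and 5.81% against venous ones. The part of mural cell or fibroblast RNA in the levels of Prkg1, Gucy1a1 and Gucy1b1 was not tested.

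Among the phosphodiesterases, which break down cyclic nucleotides, Pde3a stood out. It encodes a phosphodiesterase of cyclic AMP that cyclic GMP inhibits. It had 200.2, 250.1 and 198.8 CPM in endocardial, 5.43, 11.3 and 5.06 CPM in arterial and 25.0, 21.6 and 23.2 CPM in venous replicates. No 2 populations overlapped. The same held for 25.6% of all features between endocardial and arterial libraries. It held for 28.2% between endocardial and venous and for 17.3% between arterial and venous libraries. Endocardial libraries were 29.6-fold above arterial (adjusted p = 8.66e-09) and 9.28-fold above venous ones (adjusted p = 7.28e-07), and arterial libraries were lower than venous ones (log2 -1.67 ± 0.26, adjusted p = 0.00285, all edgeR).

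Pde4b, specific for cyclic AMP, was lower in endocardium, at 94.9 ± 8.29 CPM against 195 ± 21.3 CPM (arterial) and 215 ± 7.32 CPM (venous) (adjusted p = 0.000218 and 9.26e-05, edgeR). Pde1c was 3.85-fold and 3.46-fold higher in endocardial than in arterial and venous libraries (adjusted p = 0.0295 and 0.0489, edgeR). The first call was lost without any endocardial library or without arterial replicates 2 or 3 (0.0603 to 0.123). The venous one was lost with the replicate block (adjusted p = 0.0513), without a filter (0.0705) and without any single library but arterial replicates 1 and 2 (0.0508 to 0.255). Pde10a was lower in endocardial than in venous libraries (log2 -1.13 ± 0.34, adjusted p = 0.0429, edgeR), a call lost with RLE scaling (0.0542) and without endocardial replicates 2 or 3 or any venous library (0.0597 to 0.167).

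Pde5a and Pde9a, the phosphodiesterases selective for cyclic GMP, were not called. Pde5a had 17.9 ± 4.23, 15.02 ± 4.29 and 15.6 ± 4.40 CPM and Pde9a 2.72 ± 3.45, 4.36 ± 0.869 and 6.83 ± 1.85 CPM in endocardial, arterial and venous libraries. Of 11 phosphodiesterase genes tested, 2 were higher and 1 lower against arterial and 2 higher and 2 lower against venous libraries. Of all features, 5.75% were called higher and 5.92% lower against arterial libraries, and 4.44% and 5.81% against venous ones. Median log2 fold changes of these genes were 0.32 and 0.09, and over all features -0.01 and 0.10. Pde2a could not be matched to a row and was not analysed here.

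**Figure D4:**
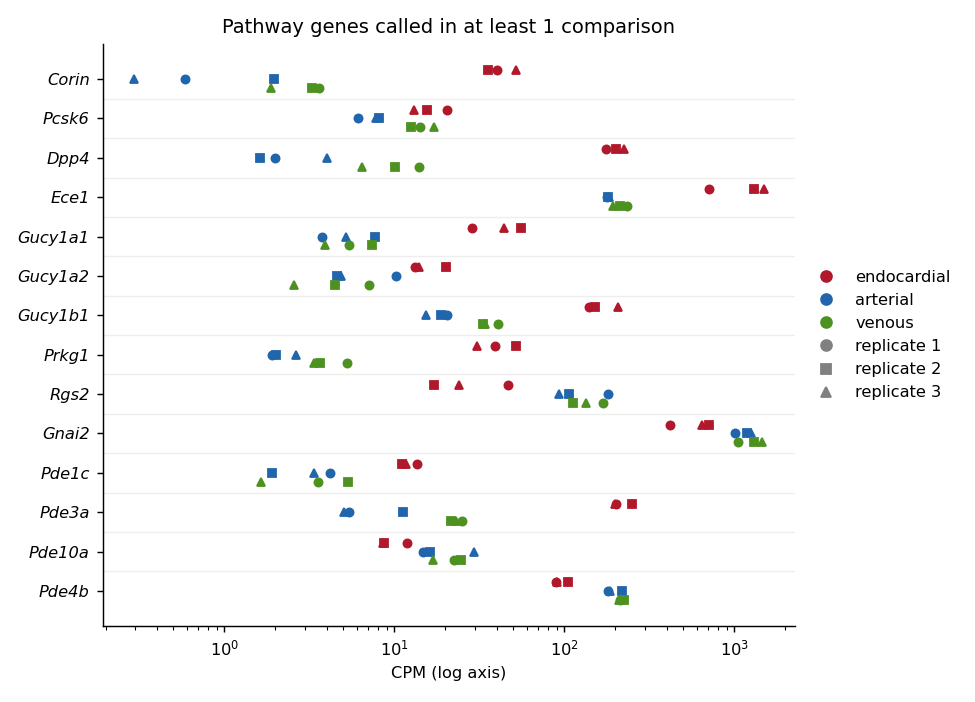
CPM (logarithmic horizontal axis) in each library of the 14 pathway genes that were called in at least 1 comparison, with population as colour and replicate as symbol. Endocardial points lie to the right of all others for Corin, Dpp4, Ece1, the soluble cyclase genes, Prkg1, Pde1c and Pde3a, and to the left for Rgs2, Gnai2, Pde10a and Pde4b.

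Over all 39 pathway genes tested, 9 were higher and 3 lower in endocardial than in arterial libraries, where 5.75% of all features were called higher and 5.92% lower. Against venous libraries 9 were higher and 4 lower, where 4.44% and 5.81% of features were. Between arterial and venous libraries none was higher and 3 (Dpp4, Gucy1b1 and Pde3a) were lower, where 0.31% and 0.76% were. The lists were written with earlier results of these data known. Of these calls, 10 of 12, 10 of 13 and 1 of 3 held under each of the 14 alternatives run.

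**Figure D5:**
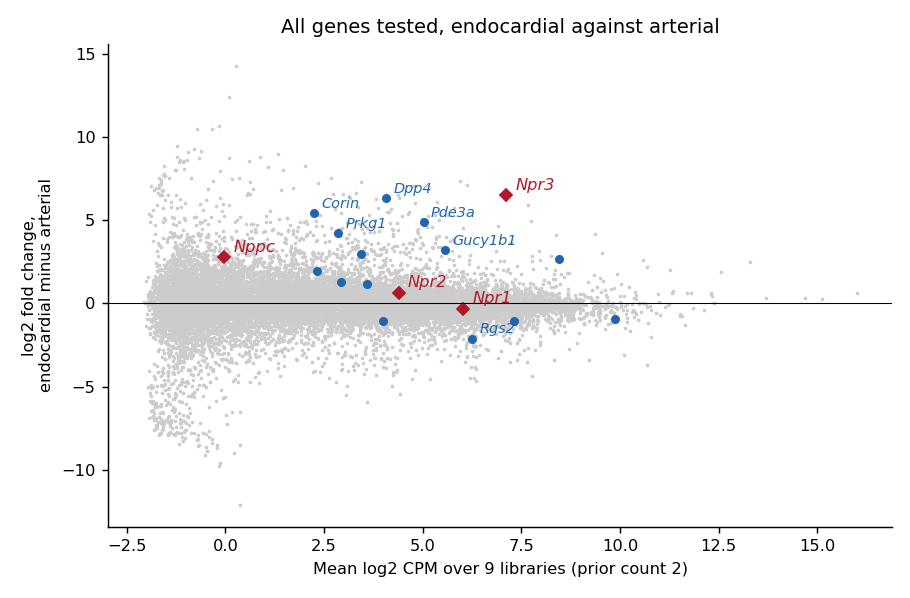
Log2 fold change of endocardial minus arterial libraries (vertical axis) against mean log2 CPM over 9 libraries (horizontal axis) for 17103 features (grey), with the natriuretic genes tested (red diamonds) and the 14 pathway genes (blue). Npr3, at 6.49, lies far above 0, while Npr1 lies at -0.33 and Npr2 at 0.65.

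The genes whose profile was most like that of Npr3 were taken by Pearson's r of log2 CPM over the 9 libraries, among 8437 candidates. They were St6gal1 (a sialyltransferase gene, r = 0.998), Sall1 (a zinc finger factor gene, 0.995), Rhou (0.994), Ednrb (the endothelin receptor B gene, 0.994) and Emcn (endomucin, 0.993), whose product was used in the coronary sorts. These r values include the gap between endocardial and coronary libraries. Over the 6 coronary libraries alone they were lower but still 0.953, 0.949, 0.872, 0.820 and 0.960. Ednrb had 1076 CPM in endocardial, 149 in arterial and 177 CPM in venous libraries, and Sall1 194, 3.75 and 8.93 CPM. For Npr1 the 5 closest included Ldha (0.972), Jak3 (0.961), Jup (0.952) and Tmtc2 (0.949). For Npr2 they were Slc35b3 (0.968), Tnrc18 (0.965), Sh2b1 (0.955), Mogs (0.950) and Fam168a (0.924), and for Nppc Cdc26 (0.944), Degs1 (0.930), H2afv (0.913), mt-Nd4l (0.911) and Optn (0.907). All share the same libraries and depth.

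Genes on the opposite strand overlap all 3 receptor genes. Gm16048, which overlaps Npr1, had 0.531% as many counts as Npr1, and Gm12473, which overlaps Npr2, had 1.26% as many as Npr2. Gm5144 shares 321 exonic bases with Npr3, and its counts were not analysed here, so that its part in the reads of Npr3 was not tested.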

How the data were processed

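RNA from the sorted cells was sequenced as single reads. The deposited table holds expected counts per gene, made by the authors, per the submitters' processing notes, with CASAVA 1.8.2, cutadapt 1.3 and RSEM 1.2.3 against GRCm38 (Ensembl release 76 by the table's name). Aligner and strandedness: not given in the sources used here. Symbols matched 40254 of 41214 features. Of the values above 0, 45.5% were not whole, and all were rounded to whole counts before testing. All 9 libraries entered 1 fit in edgeR 4.0.16 (R 4.3.3) with TMM scaling and its filter on low counts (minimum count of 10), without a block; the script was checked on simulated data. Coordinates and union exon lengths (for RPKM) came from GENCODE release 21 for mouse (GRCm38), and promoters from RefSeq.

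The batch label equals the replicate number and pairs the libraries. Correlations of deviations from the population means within a number were -0.09 to 0.165. DESeq2 1.42.0, another scaling, no filter, the block, fits of 2 groups and leaving out each library were tried.

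The genes were given, and the pathway and marker lists were chosen with earlier results of these data known. Named genes were the 6 genes, pathway genes called in a comparison or with a described role, and for each gene tested the 5 most correlated genes (log2 CPM with prior count 2, averaging 3 or more), leaving out predicted, Y-linked and pseudogenes and Xist. One of these correlated genes is not reported here.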

Additional observations from a re-analysis of the deposited data

How the results depend on the processing

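Both endocardial differences of Npr3 were called under all 14 alternatives, at log2 fold changes of 6.22 to 6.78 against arterial and 5.42 to 5.81 against venous libraries with 1 library left out. Of the 168 member values under alternatives, 162 kept their direction and side of the threshold. Npr1 was called lower in endocardial than in venous libraries without a filter on low counts (-0.91) and with the replicate block (-0.89), and lay between -1.05 and -0.62 with 1 library left out. Npr3 was called lower in arterial than in venous libraries by DESeq2 (-0.91) and without a filter (-0.95). Neither of these differences in Npr1 and Npr3 was called under any other alternative. Directions reversed for Npr1, endocardial minus arterial, at 0.0226 without arterial replicate 2 (range -0.59 to 0.02), and for Npr2, arterial minus venous, at 0.0901 without arterial replicate 1 (-0.46 to 0.09). The replicate block changed no other call of the 6 genes.

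Genes called between arterial and venous libraries numbered 183, against 404 with DESeq2, 439 without a filter and 120 to 225 with 1 library left out. Between endocardial and venous libraries they numbered 1753, against 1130 to 1871 with 1 library left out. Of the 3 pathway genes called between arterial and venous libraries, 1 was called in a fit of those 2 groups only. Of the calls of single pathway genes, 351 of 392 were kept, and the 41 others lost significance with no change of sign. The causes were not tested. Median log2 fold changes moved by under 0.1 between scalings. Nppa and Nppb did not pass the filter on low counts, and differences between populations in them were not detectable at this depth.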
